A study of Mus musculus with 20 samples.

Results

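The genes described are 5 parts of the protein complex that ties the muscle fibre's cytoskeleton to its surroundings: utrophin (Utrn), dystrophin (Dmd), dystroglycan (Dag1), alpha-sarcoglycan (Sgca) and beta-sarcoglycan (Sgcb). They were taken by gene symbol from the platform annotation, dim probe sets included, which gave 11 of the 10748 probe sets in the deposited table (5 of 6603 genes with a probe set of their own). Utrn and Sgca had 1 probe set each, Sgcb 2, Dmd 3 and Dag1 4, and none of these carried a second gene symbol. RNA of single muscles was measured on 20 Affymetrix arrays, 4 in each of 5 groups of female C57BL/6 mice, all aged 14 weeks when the muscle was taken. SOD1 arrays are gastrocnemius (a calf muscle of the hind limb) and triceps (a muscle of the fore limb) of symptomatic mice that carry a human SOD1 transgene with a mutation of amyotrophic lateral sclerosis (SOD1G93A in the titles), a model of that disease in which motor neurons are lost. NTg arrays are the same muscles of mice without the transgene. Crush arrays are gastrocnemius taken 2 weeks after the sciatic nerve was compressed with forceps for 30 s, at 12 weeks of age, and served as a denervation control. The genotype of the crushed mice, the promoter of the transgene and a sham operation were not given in the sources used here. The crush group is 1 time point in a process of nerve loss and regrowth.

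Dystrophin is a long rod-shaped protein under the fibre membrane that binds actin at one end and beta-dystroglycan at the other. Dag1 encodes both dystroglycan subunits, and the alpha subunit, once glycosylated, binds laminin in the basement membrane. The sarcoglycans form a membrane-spanning subcomplex that stabilises dystroglycan. Utrophin is the autosomal relative of dystrophin: in adult muscle it is concentrated at the neuromuscular and myotendinous junctions, where it sits beneath the acetylcholine receptors, and it is also made by blood vessels and by regenerating fibres.

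The windows of 250 bases before an annotated transcript start are shown for Utrn, the member called, and for Dmd and Dag1, because the windows shown carry different sets of letter motifs. Sequences are from RefSeq (GRCm38.p6) and run 5′ to 3′ on the gene's strand. All 5 members matched the RefSeq tables by symbol. The Utrn window lies at chr10:12861736-12861985 on the minus strand, 8153 bases inside the 5′ edge of the annotated gene (chr10:12382187-12869888), and windows at other Utrn starts were not searched. Its capitals mark the E-box CANNTG, the letters bound by myogenic factors such as myogenin:
Utrn: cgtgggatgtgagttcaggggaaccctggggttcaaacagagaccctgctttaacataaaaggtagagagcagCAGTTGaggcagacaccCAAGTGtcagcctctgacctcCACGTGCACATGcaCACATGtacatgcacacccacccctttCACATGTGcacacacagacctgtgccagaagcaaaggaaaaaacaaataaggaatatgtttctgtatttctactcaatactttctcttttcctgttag
The first Dmd window lies at chrX:82948620-82948869 on the plus strand, within the annotated gene (chrX:82814664-85205050), and its capitals mark a CArG box, the letters bound by serum response factor:
Dmd: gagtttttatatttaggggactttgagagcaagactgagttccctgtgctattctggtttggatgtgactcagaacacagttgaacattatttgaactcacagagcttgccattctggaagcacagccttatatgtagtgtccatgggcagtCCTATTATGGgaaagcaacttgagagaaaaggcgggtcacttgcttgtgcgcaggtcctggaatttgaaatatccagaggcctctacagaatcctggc
The first Dag1 window lies at chr9:108263959-108264208 on the minus strand, at the 5′ edge of the gene (chr9:108204861-108263977), and its capitals mark the GC box GGGCGG, the letters bound by Sp1:
Dag1: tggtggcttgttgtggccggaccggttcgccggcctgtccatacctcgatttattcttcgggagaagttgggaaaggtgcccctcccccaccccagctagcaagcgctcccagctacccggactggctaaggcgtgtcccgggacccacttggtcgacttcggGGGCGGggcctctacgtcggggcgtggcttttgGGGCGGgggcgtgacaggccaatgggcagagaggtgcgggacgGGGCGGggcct

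Read on both strands, the Utrn window held 7 E-boxes, some of them overlapping, with first bases 177, 160, 139, 133, 125, 98 and 96 bases before the start. It held 0 matches to the N-box TTCCGG, the letters through which GABP acts at junction genes, and 0 CArG and 0 GC boxes. These counts are of this window alone, which lies inside the gene, and do not describe the sequence at the gene's 5′ edge. The Dmd window shown held 1 CArG box, whose first base lay 98 bases before the start, and 2 E-boxes. Another Dmd window, at chrX:85048045-85048294, is not shown and held 0 CArG boxes, 0 E-boxes and 3 GC boxes. In the Dag1 window the 3 GC boxes began 87, 54 and 11 bases before the start, beside 1 E-box. Of 32851 RefSeq windows of the same length, 66.2% held an E-box, 12% an N-box, 1.47% a CArG box and 32.7% a GC box. The CArG box was thus the least common of these letters over all windows. No protein-DNA binding was measured in this study.

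The median log2 signal of an array was between 6.61 and 6.76, and no 2 arrays held identical values. The mean Pearson's r of an array with the others of its group, across probe sets, ranged from 0.917 for crush replicate 4 to 0.972. Crush replicate 4 stood apart from the other crush arrays in Chrna1 and other genes given below, so each crush difference from NTg is also given without it where that moves it by over 1.5 times or turns its direction, and for Utrn, Dmd and the genes named from the pathway lists. The description of NTg triceps replicate 4 names gastrocnemius, while its title, tissue and source name triceps; it was kept as triceps. Titles call the replicates biological, no label ties a replicate to a mouse, and the number of arrays limits the precision of every value. All values below are log2 MAS5 signals; a difference of 1 is a doubling of the signal, and levels of different probe sets cannot be set against each other. A call means an adjusted p under 0.05 in limma over the 7523 probe sets kept after those in the lowest 30% by mean were left out. Of the 11 member probe sets 10 were kept, and 1 Dmd probe set was too dim.

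**Figure D1:**
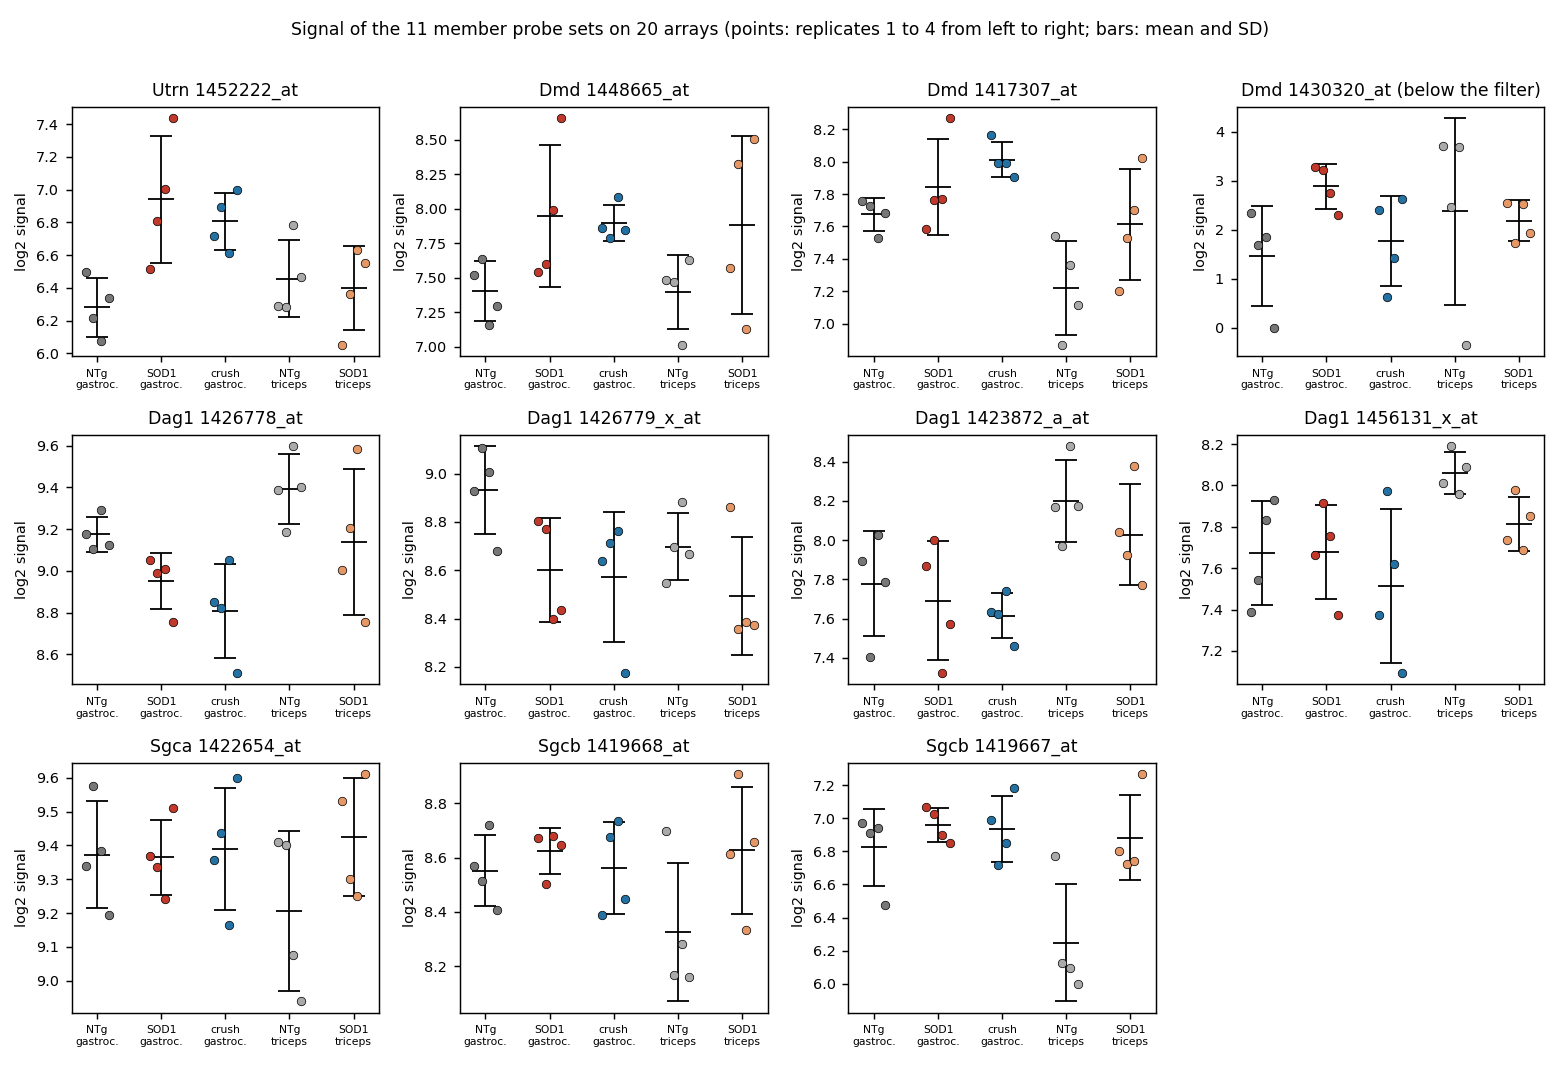
Log2 signal of the 11 member probe sets (y axes, 1 scale per panel) on the 20 arrays, by group (x axes); points are single arrays, replicates 1 to 4 from left to right, and bars are the group mean and SD. Utrn lies between 6.51 and 7.44 in SOD1 gastrocnemius and between 6.07 and 6.50 in NTg gastrocnemius, while the Dag1 probe set 1426778_at lies lower in SOD1 and crushed gastrocnemius than in NTg gastrocnemius.

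Utrn rose in the gastrocnemius of SOD1 mice. The probe set 1452222_at read 6.50, 6.21, 6.07 and 6.34 in NTg gastrocnemius and 6.51, 6.81, 7.00 and 7.44 in SOD1 gastrocnemius. The lowest SOD1 array lay just above the highest NTg array, so the groups did not overlap, and replicate 4 was the highest SOD1 array. The mean rose from 6.28 ± 0.18 to 6.94 ± 0.39 (SD, n = 4 each), a log2 change of 0.66 (SE 0.18, 95% interval 0.28 to 1.04), or 1.58-fold (1.21 to 2.06). Its adjusted p was 0.0259 in limma. Utrn was the only member called in this comparison, 1 of 10, beside 12% of all probe sets tested. The call was lost when single arrays were left out: without SOD1 replicate 4 the log2 change was 0.49 (adjusted p = 0.117) and without SOD1 replicate 3 it was 0.64 (adjusted p = 0.0646). Without NTg replicate 2, 3 or 4 the log2 change was 0.64, 0.59 or 0.68 (adjusted p = 0.0651, 0.0766 and 0.0562). Without SOD1 replicate 1, the lowest of the SOD1 arrays, it was 0.80 (adjusted p = 0.0076). In these whole-muscle samples a change in the number of cells that make an RNA and a change in RNA per cell cannot be told apart.

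**Figure D2:**
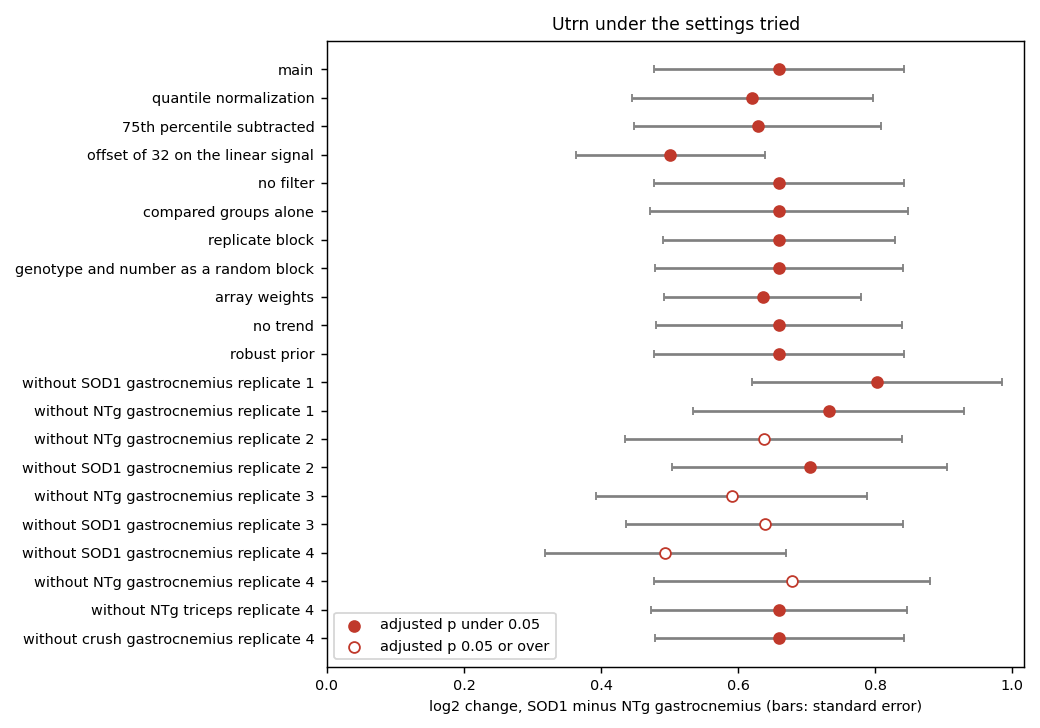
Log2 change of Utrn between SOD1 and NTg gastrocnemius (x axis) under each setting that tested it (y axis); points are estimates, bars standard errors, and filled points have an adjusted p under 0.05. The estimate runs from 0.49 without SOD1 replicate 4 to 0.80 without SOD1 replicate 1, and the 5 open points are all fits with 1 array left out.

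Crushed gastrocnemius read 6.72, 6.89, 6.61 and 7.00 for Utrn. All 4 crush arrays lay above all 4 NTg gastrocnemius arrays, and the crush mean was 6.81 ± 0.17 (SD, n = 4). The log2 difference from NTg was 0.52 (SE 0.18, adjusted p = 0.107 in limma), which did not pass the threshold, and without crush replicate 4 it was 0.46 (adjusted p = 0.181). None of the 10 members was called after crush, beside 4.13% of all probe sets, nor without crush replicate 4, beside 5.25%. SOD1 and crushed gastrocnemius differed in Utrn by 0.14 on the log2 scale, with an interval from -0.24 to 0.52.

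In triceps Utrn was not called. The NTg triceps read 6.29, 6.28, 6.78 and 6.47 and the SOD1 triceps 6.05, 6.36, 6.63 and 6.55, with means of 6.46 ± 0.23 and 6.40 ± 0.26 (SD, n = 4 each). These ranges overlapped almost entirely, and the log2 difference was -0.06 (interval -0.44 to 0.32, adjusted p = 0.893). The SOD1 difference in gastrocnemius exceeded that in triceps by 0.72 (SE 0.26, interval 0.18 to 1.25), with an unadjusted p of 0.0115 and an adjusted p of 0.438 in limma, so a difference between the muscles was not established over all probe sets. Ordered by mean, Utrn was highest in SOD1 gastrocnemius, then in crushed gastrocnemius, NTg triceps, SOD1 triceps and NTg gastrocnemius. Each step in that order was smaller than 1 SD of the group with the larger spread except that from crushed gastrocnemius to NTg triceps.

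Dmd was read by 3 probe sets, and none was called in any comparison. The probe set 1448665_at read 7.52, 7.64, 7.16 and 7.30 in NTg gastrocnemius and 7.54, 7.60, 7.99 and 8.66 in SOD1 gastrocnemius. Replicates 1 and 2 of the SOD1 group fell within the NTg range and replicate 4 was far above it. The log2 difference was 0.55 (SE 0.26, adjusted p = 0.167), and without SOD1 replicate 4 it was 0.31 (adjusted p = 0.505). After crush the same probe set read 7.86, 7.79, 8.08 and 7.85, a tight group that lay wholly above NTg, with a log2 difference of 0.49 (adjusted p = 0.293), and 0.51 without crush replicate 4. The fit shares 1 estimate of spread over all groups, and for this probe set the SOD1 triceps SD was 0.65 while the crush SD was 0.13.

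In triceps 1448665_at spread widely. The NTg arrays read 7.48, 7.47, 7.01 and 7.63 and the SOD1 arrays 7.57, 8.33, 7.13 and 8.51. Replicates 2 and 4 of the SOD1 group were above every NTg array and replicates 1 and 3 were not. The log2 difference was 0.48 (adjusted p = 0.371); without SOD1 triceps replicate 4 it was 0.27 (adjusted p = 0.779).

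The Dmd probe set 1417307_at also stood higher after crush. NTg gastrocnemius read 7.76, 7.73, 7.53 and 7.68, SOD1 gastrocnemius 7.58, 7.76, 7.77 and 8.27, and crushed gastrocnemius 8.16, 7.99, 7.99 and 7.90. The crush arrays did not overlap with NTg and the SOD1 arrays did. The log2 difference from NTg was 0.34 after crush (SE 0.17, adjusted p = 0.272; 0.37 without crush replicate 4) and 0.17 in SOD1 gastrocnemius (adjusted p = 0.538). In triceps it read 7.54, 6.87, 7.36 and 7.12 in NTg and 7.20, 7.53, 7.70 and 8.02 in SOD1, a log2 difference of 0.39 between overlapping groups (adjusted p = 0.298). NTg gastrocnemius was above NTg triceps by 0.45 (adjusted p = 0.203).

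The dim Dmd probe set 1430320_at had a mean of 2.14 over all arrays, in the lowest 0.0558% of the table. Its values ran from -0.35 in NTg triceps replicate 4 to 3.71 in NTg triceps replicate 1. In a fit without the filter its adjusted p was 0.285 for SOD1 against NTg gastrocnemius, and it was not read further.

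Dag1 was lower in SOD1 and crushed gastrocnemius in some of its 4 probe sets, without a call. The probe set 1426778_at read 9.17, 9.11, 9.29 and 9.13 in NTg gastrocnemius, 9.05, 8.99, 9.01 and 8.76 in SOD1 gastrocnemius, and 8.85, 8.82, 9.05 and 8.51 in crushed gastrocnemius. Every SOD1 and every crush array lay below every NTg gastrocnemius array. The log2 differences were -0.22 (SE 0.15, adjusted p = 0.338) and -0.36 (adjusted p = 0.168). Without crush replicate 4, the lowest of the crush arrays, the latter was -0.27 (adjusted p = 0.323).

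The probe set 1426779_x_at, whose suffix marks probes that may also bind other transcripts, read 8.93, 9.11, 9.01 and 8.68 in NTg gastrocnemius and 8.80, 8.77, 8.40 and 8.43 in SOD1 gastrocnemius. Crushed gastrocnemius read 8.64, 8.71, 8.76 and 8.18. NTg replicate 4 overlapped with both groups, and the log2 differences were -0.33 (adjusted p = 0.153) and -0.36 (adjusted p = 0.181). Without crush replicate 4 the latter was -0.23 (adjusted p = 0.391). The other Dag1 probe sets differed less from NTg gastrocnemius: 1423872_a_at by -0.09 in SOD1 and -0.16 after crush, and 1456131_x_at by 0.0022 and -0.16, with adjusted p of at least 0.63. Without crush replicate 4 the crush differences of these were -0.11 and -0.0197. In triceps all 4 Dag1 differences between SOD1 and NTg were below 0, from -0.25 to -0.17, with adjusted p between 0.407 and 0.621.

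Sgca, a sarcoglycan made almost only in striated muscle, showed little difference between the gastrocnemius groups. It read 9.34, 9.57, 9.38 and 9.19 in NTg, 9.37, 9.34, 9.24 and 9.51 in SOD1, and 9.36, 9.44, 9.16 and 9.60 after crush. These 3 ranges covered each other, and the SOD1 log2 difference of -0.0075 had an interval from -0.28 to 0.27. The crush difference was 0.017, and -0.054 without crush replicate 4. In triceps it read 9.41, 9.40, 9.08 and 8.94 in NTg and 9.53, 9.30, 9.25 and 9.61 in SOD1, a log2 difference of 0.22 (adjusted p = 0.421).

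Sgcb, the partner that assembles with the other sarcoglycans, had its lowest mean in NTg triceps in both probe sets, without a call. Its dimmer probe set 1419667_at read 6.77, 6.12, 6.10 and 6.00 in NTg triceps and 6.80, 6.72, 6.74 and 7.26 in SOD1 triceps. NTg replicate 1 alone reached the SOD1 range. The log2 difference was 0.63 (SE 0.17, adjusted p = 0.120 in limma), the lowest adjusted p of any member in triceps; without NTg triceps replicate 1 it was 0.81 (adjusted p = 0.0330) and without SOD1 triceps replicate 4 it was 0.51 (adjusted p = 0.467). None of the 10 members was called in triceps, beside 0.239% of all probe sets.

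In gastrocnemius 1419667_at read 6.97, 6.91, 6.94 and 6.48 in NTg, 7.07, 7.03, 6.90 and 6.85 in SOD1 and 6.99, 6.72, 6.85 and 7.18 after crush. The differences from NTg, 0.14 and 0.11, lay within the spread of the arrays, and without crush replicate 4 the latter was 0.030. The brighter Sgcb probe set 1419668_at read from 8.41 to 8.72 in NTg gastrocnemius, 8.50 to 8.68 in SOD1 and 8.39 to 8.73 after crush. Its crush difference from NTg was 0.0088, and 0.047 without crush replicate 4. In triceps it read 8.70, 8.17, 8.28 and 8.16 in NTg and 8.61, 8.91, 8.34 and 8.66 in SOD1, a log2 difference of 0.30 (adjusted p = 0.305). Both Sgcb probe sets thus had their highest NTg triceps value in replicate 1.

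**Figure D3:**
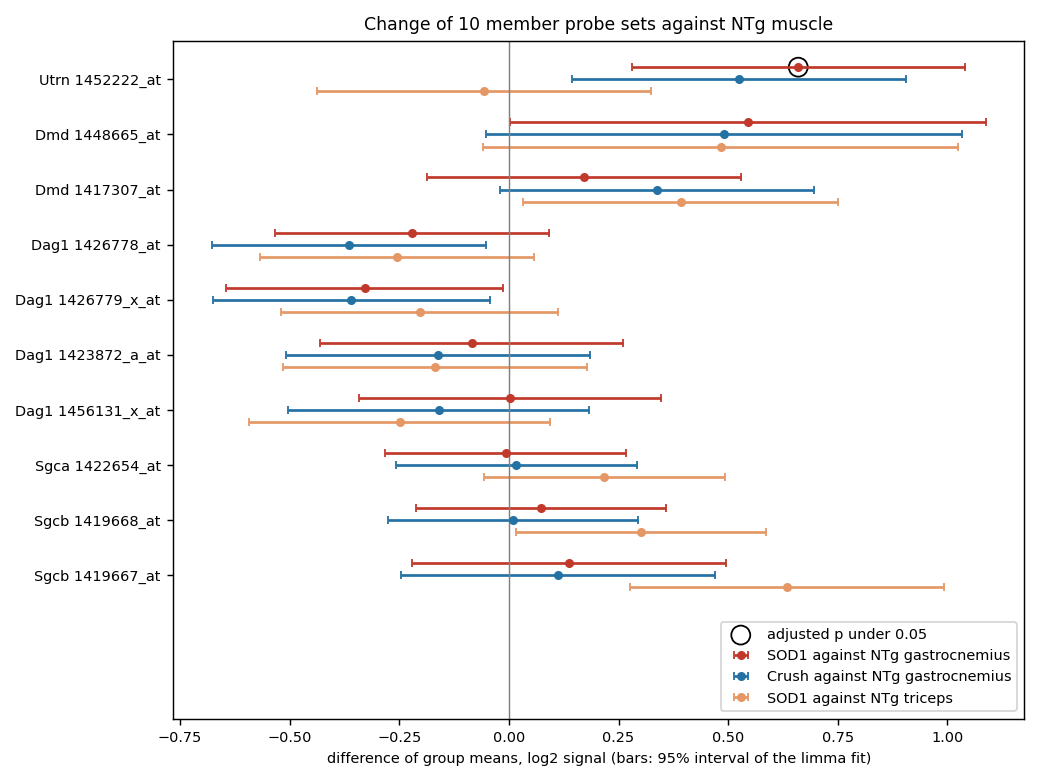
Difference of group means in log2 signal (x axis) for the 10 member probe sets kept (y axis) in SOD1 against NTg gastrocnemius, crush against NTg gastrocnemius and SOD1 against NTg triceps; bars are 95% intervals of the limma fit and the ring marks an adjusted p under 0.05. Only the Utrn point of SOD1 gastrocnemius is ringed, at 0.66; the Dmd points lie right of 0 and most Dag1 points left of it.

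Counted over the members, groups did not overlap for 2 of 10 probe sets between SOD1 and NTg gastrocnemius (Utrn higher, Dag1 1426778_at lower), beside 26% of all probe sets tested. Between crushed and NTg gastrocnemius 4 of 10 did not overlap (Utrn and both Dmd probe sets higher, Dag1 1426778_at lower), beside 16.4%. Without crush replicate 4 the same 4 did not overlap, beside 28.1%. Between the triceps groups it was 0 of 10, beside 6.99%. Both gastrocnemius comparisons share their NTg arrays. An unadjusted p under 0.05 was reached by 3 of 10 in SOD1 gastrocnemius (29.5% of all probe sets), 3 in SOD1 triceps (15.2%) and 3 after crush (20.7%). The median log2 change of the 10 was 0.037 in SOD1 gastrocnemius, 0.080 in SOD1 triceps and 0.013 after crush, beside -0.0015, 0.013 and 0.017 over all probe sets. The medians are over members that differed in both directions.

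SOD1 and crushed gastrocnemius were compared directly. None of the 10 members was called, beside 0% of all probe sets, 0 of 10 had an unadjusted p under 0.05 (12.5% of all), and 0 of 10 did not overlap (5.48%). Member differences ran from -0.17 for Dmd 1417307_at to 0.16 for Dag1 1456131_x_at. Without crush replicate 4 the background changed: 604 of all probe sets (8.03%) were called and 24.8% did not overlap, while 0 of 10 members were called and 0 of 10 did not overlap. Their differences then ran from -0.20 for Dmd 1417307_at to 0.20 for Utrn, and those of Sgca (0.046) and Dag1 1426779_x_at (-0.10) turned direction. The interval for Dmd 1448665_at, -0.49 to 0.60, was the widest, so a difference of that size between the conditions was not detectable with 4 arrays a group. For the SOD1 difference in gastrocnemius minus that in triceps, 0 of 10 members were called (0% of all probe sets) and 1 of 10, Utrn, had an unadjusted p under 0.05 (9.44%).

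Between the muscles of NTg mice 0 of 10 members were called, beside 1.71% of all probe sets, 4 had an unadjusted p under 0.05 (14.3%), and 1 did not overlap (10.3%). That one was Dag1 1456131_x_at, which read 7.39, 7.54, 7.83 and 7.93 in gastrocnemius and 8.01, 8.19, 7.96 and 8.09 in triceps. Its log2 difference, gastrocnemius minus triceps, was -0.39 (adjusted p = 0.268), and that of Dag1 1423872_a_at was -0.42 (adjusted p = 0.224), whereas 1426779_x_at differed by 0.23 the other way. Sgcb 1419667_at was 0.57 higher in gastrocnemius (adjusted p = 0.0990); with array weights it passed the threshold (0.57, adjusted p = 0.0321), as it did without NTg triceps replicate 1 (0.75, adjusted p = 0.00736). Utrn differed by -0.17 between the muscles (adjusted p = 0.739).

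Other proteins of the complex were represented by 7 tested genes of a list of 18. In SOD1 gastrocnemius 0 rose and 1 fell, beside 6.31% of genes higher and 5.77% lower over the array, with a list median of -0.06. The gene that fell was Nos1, the neuronal nitric oxide synthase that is anchored to dystrophin through syntrophin. Nos1 read 7.42, 7.80, 7.88 and 8.26 in NTg and 7.40, 6.58, 6.68 and 5.37 in SOD1 gastrocnemius, without overlap. Its log2 change was -1.34 (SE 0.35, adjusted p = 0.0210), and the call was lost without SOD1 replicate 4 (-0.96, adjusted p = 0.0911) or NTg replicate 4 (-1.19, adjusted p = 0.0655). After crush Nos1 differed by -0.90 (adjusted p = 0.144), and by -0.63 without crush replicate 4. Aqp4, the water channel bound by syntrophin, differed after crush by -0.51, and by 0.0021 without that array. In triceps no gene of this list was called; Aqp4 differed by -0.69 and Nos1 by -0.32.

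Ligands of dystroglycan and basement membrane proteins gave 12 tested genes of 20, with 0 called in SOD1 gastrocnemius, crushed gastrocnemius or triceps. Their median log2 change was 0.25 in SOD1 gastrocnemius and 0.13 after crush, with 8 of 12 above 0 each time, and -0.30 in SOD1 triceps, where 0 of 12 were above 0. Fibroblast markers lay on the same side in the SOD1 muscles, with a median of 0.30 in gastrocnemius (8 of 8 above 0) and -0.33 in triceps (1 of 8). After crush they did not, with a median of -0.04 (4 of 8). In SOD1 triceps endothelial markers had a median of -0.49 (0 of 9) and muscle fibre markers one of -0.59 (0 of 12). Their part in the ligand values was not tested. The median over all genes was 0.0063, 0.026 and 0.00029. Nid1 (nidogen, which joins laminin to collagen IV) differed by 0.55 in SOD1 gastrocnemius and by 0.55 after crush (0.70 without crush replicate 4, adjusted p = 0.0726), and Col6a1 by 0.38 in SOD1 gastrocnemius. Nid1 passed the threshold in SOD1 gastrocnemius with the compared groups alone (adjusted p = 0.0422) and with array weights (adjusted p = 0.0187), and after crush with array weights (adjusted p = 0.0206). Col4a1, a collagen IV chain, differed after crush by 0.47, by 0.88 without crush replicate 4 (adjusted p = 0.0720) and by 0.79 with array weights (adjusted p = 0.0273). In triceps Col4a1 and its partner chain Col4a2 differed by -0.53 and -0.46. The list median after crush was not taken without crush replicate 4, the lowest crush array for Nid1, Col4a1, Col4a2 and Col6a1.

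Enzymes that glycosylate dystroglycan gave 9 tested genes of 19. In SOD1 gastrocnemius 0 rose and 2 fell, beside 6.31% and 5.77% of all genes: B3galnt2, which adds N-acetylgalactosamine to the core glycan, by 0.52 on the log2 scale (adjusted p = 0.0145), and Rxylt1, which adds xylose to the ribitol phosphate of the chain, by 0.49 (adjusted p = 0.0424). B3galnt2 read 8.11, 8.33, 8.12 and 8.18 in NTg, 7.78, 7.73, 7.72 and 7.43 in SOD1 and 7.55, 7.74, 7.86 and 7.64 in crushed gastrocnemius, so that both groups lay wholly below NTg. It was also the 1 gene of this list called after crush (-0.49, adjusted p = 0.0330, and -0.48 without crush replicate 4), beside 1.26% of genes called higher and 2.96% called lower. Another B3galnt2 probe set changed by -0.17 and -0.35. The B3galnt2 call in SOD1 gastrocnemius was lost without SOD1 replicate 4 (-0.44, adjusted p = 0.0714), and the call after crush without any NTg gastrocnemius array or without crush replicate 1 or 2 (adjusted p from 0.0564 to 0.103). The Rxylt1 call was lost without any NTg gastrocnemius array or without SOD1 replicate 2, 3 or 4 (adjusted p from 0.0611 to 0.170). Rxylt1 read 8.02, 8.38, 8.09 and 8.13 in NTg and 8.11, 7.50, 7.76 and 7.33 in SOD1 gastrocnemius, with overlap. After crush it read 7.67, 7.66, 7.76 and 7.64, wholly below NTg, without a call. In triceps 0 of 9 were called; B3galnt2 differed by 0.27 and Dolk by -0.21.

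Costamere, integrin and membrane repair genes, which share the fibre's lateral attachment sites with dystrophin, gave 23 tested genes of 28. In SOD1 gastrocnemius 3 rose and 1 fell, beside 6.31% and 5.77% of all genes, with a median of 0.17. Krt8, a keratin of costameres, rose by 2.32 (adjusted p = 0.0415), from 5.11, 5.81, 5.17 and 5.13 in NTg to 6.07, 7.71, 7.20 and 9.52 in SOD1. Its mean was under the filter of 5.88 without the SOD1 gastrocnemius arrays (5.69) and also without the crush arrays (5.83). It was thus tested only through the high values of these groups. Its rise, 1 of the 3 counted above, and its adjusted p are given as a description. Lims1 (PINCH, part of the integrin-linked kinase complex) rose by 0.93 (adjusted p = 0.0323) and Cryab, the small heat shock protein that protects desmin, by 0.58 (adjusted p = 0.0228). Capn3, the muscle calpain, fell by 0.95 (adjusted p = 0.0139), from 8.67, 8.74, 8.66 and 8.62 to 8.13, 7.71, 7.46 and 7.61. After crush 1 gene rose, Tln1 (talin, which couples integrins to actin), by 0.64 (adjusted p = 0.0175), and by 0.70 without crush replicate 4. Capn3 after crush read 8.24, 8.08, 7.91 and 7.27, wholly below NTg. Lims1 then read 8.08, 8.02, 7.77 and 7.72, wholly above its NTg values of 7.44, 6.65, 7.68 and 7.41, and neither was called. Cryab overlapped with NTg, from 11.12 to 11.97. Tln1 in SOD1 gastrocnemius read 8.16, 8.31, 8.47 and 8.24, wholly above the NTg values of 8.03, 7.95, 7.99 and 7.74, without a call. Between SOD1 and crush 0 of 23 were called, beside 0% of all probe sets. In triceps 0 of 23 were called, beside 0.29% of all genes. Csrp3 differed by 1.36 (adjusted p = 0.423 in limma), and by 0.37 to 2.10 with 1 array left out. It read 7.45, 5.81, 7.84 and 10.99 in SOD1 and 6.53, 6.16, 8.42 and 5.53 in NTg triceps. Itgb1 differed by 0.76 and was called without NTg triceps replicate 1 (1.01, adjusted p = 0.0330).

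These calls were lost in several fits with 1 array left out, mostly with a change of similar size. The Krt8 call was lost without any NTg gastrocnemius array or SOD1 replicate 2, 3 or 4 (log2 change 1.69 to 2.49, adjusted p from 0.0661 to 0.173), that of Lims1 without NTg replicate 1, 2 or 4 or SOD1 replicate 2 or 4 (0.72 to 0.98, adjusted p from 0.0562 to 0.110), and that of Cryab without NTg replicate 1, 2 or 4 or SOD1 replicate 2, 3 or 4 (0.52 to 0.57, adjusted p from 0.0538 to 0.0744). The Capn3 call was lost without SOD1 replicate 4 alone (-0.91, adjusted p = 0.0566). The Tln1 call was lost without NTg gastrocnemius replicate 4 (adjusted p = 0.0745) or crush replicate 2 (adjusted p = 0.0529).

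Partners of utrophin at the junction and regulators of its transcription gave 9 tested genes of 23, of which 5 rose and 0 fell in SOD1 gastrocnemius, beside 6.31% and 5.77% of all genes, with a median of 0.53. Chrna1, the acetylcholine receptor subunit that binds the transmitter, read 6.55, 6.24, 6.81 and 6.20 in NTg and 8.57, 10.23, 10.30 and 10.85 in SOD1 gastrocnemius, a log2 rise of 3.54 (adjusted p = 0.00846). Myog (myogenin, the factor that binds E-boxes) rose by 3.24 (adjusted p = 0.00634). Both stayed called without any single array. Chrnb1, the receptor's beta subunit, rose by 1.75 (adjusted p = 0.0258), Ets2, a factor of the family that binds the N-box, by 0.76 (adjusted p = 0.0249) and Sp1, the factor of the GC box, by 0.53 (adjusted p = 0.0246). Gabpa, the DNA-binding subunit of GABP, differed by 0.04 (adjusted p = 0.884). The Chrnb1 call was lost without NTg replicate 1, 2 or 4 or SOD1 replicate 2, 3 or 4 (adjusted p from 0.0523 to 0.103), that of Ets2 without replicate 2, 3 or 4 of either group (0.0514 to 0.0918), and that of Sp1 without NTg replicate 2 or 3 or SOD1 replicate 3 or 4 (0.0653 to 0.0905).

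Chrna1 after crush read 6.97, 7.28, 7.40 and 11.34, and Myog 6.31, 6.85, 7.09 and 10.14. Crush replicate 4 was the high array for both, and neither was called (adjusted p = 0.178 and 0.173); without it the log2 differences from NTg fell from 1.79 to 0.76 and from 1.53 to 0.68. Utrn in that array, 7.00, was close to the 6.89 of crush replicate 2. In the other 3 crush arrays Chrna1, between 6.97 and 7.40, lay above its highest NTg gastrocnemius value of 6.81. Utrn in these arrays also lay above its highest NTg gastrocnemius value. In triceps 0 of 9 genes were called: Chrna1 read 5.96, 6.05, 5.83 and 5.81 in NTg and 7.59, 8.86, 8.62 and 11.03 in SOD1, a log2 difference of 3.11 (adjusted p = 0.0955), and Myog differed by 2.22 (adjusted p = 0.146). Without crush replicate 4, which is no part of this comparison but enters the shared spread, both were called (adjusted p = 0.00217 and 0.0112). Chrna1 was also called with the triceps groups alone (adjusted p = 0.0433) and with array weights (adjusted p = 0.0209). In the same SOD1 triceps arrays Utrn lay within or below its NTg triceps range.

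**Figure D4:**
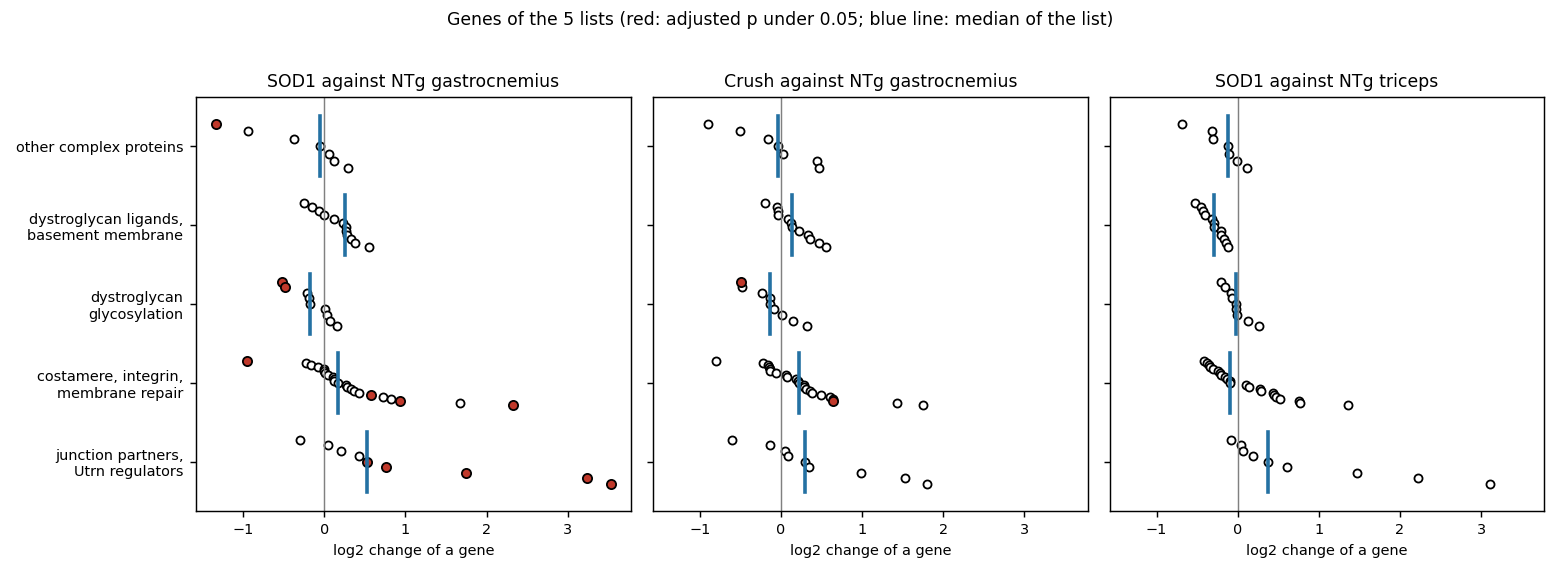
Log2 change of each tested gene (x axis) of the 5 gene lists (y axis) in SOD1 against NTg gastrocnemius, crush against NTg gastrocnemius and SOD1 against NTg triceps; each point is a gene, red points have an adjusted p under 0.05 and blue lines are list medians. The called genes with the largest rises are Chrna1 and Myog, at 3.54 and 3.24 in SOD1 gastrocnemius, and the ligand and basement membrane genes all lie below 0 in triceps.

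Markers of cell types were read beside these values. All 12 muscle fibre markers passed the filter and 0 were called in SOD1 gastrocnemius, in crushed gastrocnemius or in triceps, where all 12 were lower in SOD1. Of 9 tested macrophage markers 7 rose in SOD1 gastrocnemius, beside 6.31% of all genes: Lgals3 by 2.64, C1qa by 1.85, Ctss by 1.21, C1qb by 0.93, Csf1r by 0.90, C1qc by 0.83 and Adgre1 by 0.60, while Cd68 and Tyrobp were below the filter. Their summed linear signal over 11 genes ran from 839 to 1095 in NTg gastrocnemius, 1551 to 2318 in SOD1 gastrocnemius and 972 to 1485 in crushed gastrocnemius, and from 1122 to 1751 in NTg and 1108 to 2156 in SOD1 triceps. Endothelial markers, of which 0 of 9 were called, summed to 1082 to 1331, 948 to 1178 and 833 to 1396 in NTg, SOD1 and crushed gastrocnemius. In triceps they summed to 1121 to 1263 in NTg and 723 to 981 in SOD1, and smooth muscle and pericyte markers to 2210 to 2674 and 1978 to 2093, in both cases without overlap. In the comparisons of SOD1 gastrocnemius, crushed gastrocnemius and SOD1 triceps with NTg, fibroblast markers gave 0 of 8 calls. Smooth muscle and pericyte markers gave 1 of 6 there (Abcc9, lower by 0.60 in SOD1 gastrocnemius, beside 5.77% of all genes called lower). Schwann cell and nerve markers gave 1 of 3 (Mbp, lower by 2.35 after crush, beside 2.96% called lower). No marker was at or below 0 on the log2 scale. The part of these cells in the Utrn difference, or in the triceps values of any member, was not tested.

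Across the 20 arrays, with r given as a description since the arrays share groups, the genes most like Utrn were Xist (r = 0.83), Msn (r = 0.83) and Lpgat1 (r = 0.81). In SOD1 gastrocnemius, crush and SOD1 triceps, in that order, Msn differed from NTg by 0.89, 0.78 and -0.05, and Xist by 0.70, 0.50 and 0.06. Most like Dmd 1448665_at were Tcf12 (r = 0.89), Hnrnpr (r = 0.89) and Eif1ax (r = 0.88). Most like Dag1 1426778_at were Lpin1 (r = 0.88), Mapk14 (r = 0.86) and Atp1b2 (r = 0.85). For Lpin1 the differences in SOD1 gastrocnemius, crush and SOD1 triceps were -1.01, -0.96 and -0.47. Sgca came nearest to Golga5 (r = 0.75), Fxr1 (r = 0.74) and Bzw1 (r = 0.74), and Sgcb 1419668_at to Ensa (r = 0.75), Zfp869 (r = 0.68) and Rsrc2 (r = 0.65).

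Probe sets of 1 member did not always move together over the 20 arrays. The pair of bright Dmd probe sets had r = 0.55 and the Sgcb pair r = 0.62. Among Dag1 probe sets r ran from 0.16 to 0.79, the highest between 1426778_at and 1423872_a_at. Utrn and Dmd 1417307_at had r = 0.62, and r = 0.64 for their deviations from the group means. Dag1 1426778_at ran against Dmd 1448665_at (r = -0.67, deviations -0.60) and against Sgca (r = -0.65, deviations -0.71), so arrays with less Dag1 signal within a group had more Sgca signal.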

How the data were processed

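Total RNA was labelled and hybridised to Affymetrix arrays, per the labels' protocols. The submitters' processing notes name MAS5; its version, target level and log step were not given in the sources used here. The values deposited by the authors run from -3.66 to 13.3 and were taken as log2 signal. They were used without further scaling.

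Samples were grouped by their titles. Probe sets were named from the platform annotation: 9874 carried 1 symbol, 387 several and 487 none, and 9862 matched RefSeq (GRCm38.p6) by gene ID. Probe sets in the lowest 30% by mean (under 5.88) were left out, which left 7523, and a gene was read by its probe set with the highest mean (4832 genes). All 20 arrays entered a limma 3.58.1 fit of the 5 groups (R 4.3.3, lmFit, eBayes with trend, 15 residual degrees of freedom), with Benjamini-Hochberg adjustment over all 7523 probe sets within each of 6 comparisons. The script was tested on simulated data. MAS5 signals have no floor and no detection calls were used, so dim probe sets are uncertain.

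Named genes were all member probe sets, up to 6 called genes of each of 5 pathway lists in a comparison with NTg (or the 2 with the largest change), and the 3 genes with the highest r for each member. Gabpa, Abcc9, Mbp and the macrophage markers were chosen for naming with their values seen. The members, the gene lists and the 6 marker lists (muscle fibre, macrophage, endothelium, smooth muscle and pericyte, fibroblast, Schwann cell and nerve) were chosen with earlier results of these data known. Replicate numbers were not taken as pairs. Each of these alternatives was run: scaling by quantiles or by the 75th percentile, an offset of 32 on the linear signal, no filter or a 60% filter, only the arrays compared, a replicate block, genotype and number as a random block, array weights, no trend, a robust prior, the mean of a gene's probe sets and leaving out each array. Motifs were searched in 250 bases before each RefSeq start. Figures were drawn with matplotlib 3.10.9.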

Additional observations from a re-analysis of the deposited data

Results flagged for a closer look

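In 4 of 55 member groups, 1 array lay so far from the other 3 of its group that it passed Dixon's 95% limit for the gap over the group's range; chance alone gives about 1 in 20. The Dag1 probe set 1426779_x_at read 8.86 in SOD1 triceps replicate 1, against 8.36 to 8.38 in the others. The Sgcb probe set 1419667_at carried the remaining ones. It read 6.48 in NTg gastrocnemius replicate 4 (others 6.91 to 6.97), 6.77 in NTg triceps replicate 1 (others 6.00 to 6.12) and 7.26 in SOD1 triceps replicate 4. The triceps arrays bear on the Sgcb difference between SOD1 and NTg triceps, which is 0.63 with all arrays, 0.81 without NTg triceps replicate 1 and 0.51 without SOD1 triceps replicate 4. Their cause was not tested.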

How the results depend on the processing

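Of 1278 values of single members under the alternatives, 1214 kept their direction and side of the threshold. The rise of Utrn in SOD1 gastrocnemius was called under all 10 alternatives that kept every array of the compared groups and tested it. The log2 change there was 0.50 to 0.66 (adjusted p from 0.00224 to 0.0295 in limma), the replicate block among them (adjusted p = 0.0139). Leaving out 1 array gave 0.49 to 0.80 and ended the call in 5 of 10 fits, so the count of members called there ran from 0 to 1. The 10 include the fits without NTg triceps replicate 4 and without crush replicate 4, which are not in the compared groups. Both kept the call, and all 5 losses came from leaving out an array of the compared groups. It was 0 with the 60% filter, which left Utrn untested. With array weights it was 2, with Dag1 1426779_x_at added (-0.32, adjusted p = 0.0395); array weights also called Utrn after crush (0.47, adjusted p = 0.0348), 1 member, and Sgcb 1419667_at between the NTg muscles (0.57, adjusted p = 0.0321), 1 member. Genotype and replicate number as a random block, which no label ties to a mouse, gave 1 member between the NTg muscles too, the same Sgcb probe set (adjusted p = 0.0305). Leaving out 1 array gave 0 to 1 members in SOD1 against NTg triceps and 0 to 1 between the NTg muscles.

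Reversals of members, and that of Aqp4, fell in comparisons where they were not called. Quantile normalization gave 0.0259 for Sgca and -0.0316 for Dag1 1456131_x_at in SOD1 against NTg gastrocnemius, and -0.0032 for Sgcb 1419667_at in SOD1 against crush; subtracting the 75th percentile gave -0.0291 for Dag1 1456131_x_at. Array weights gave -0.0441 for Sgca after crush, and 0.0052 for Sgca, -0.0671 for Dag1 1426779_x_at and -0.0374 for Dmd 1448665_at in SOD1 against crush, and -0.0174 for Dmd 1448665_at in gastrocnemius minus triceps. With 1 array left out, SOD1 against NTg gastrocnemius ran from -0.0672 to 0.060 for Sgca, -0.21 to 0.0375 for Dag1 1423872_a_at and -0.0926 to 0.103 for Dag1 1456131_x_at; SOD1 against NTg triceps from -0.135 to 0.0585 for Utrn; and crush against NTg from -0.0039 to 0.18 for Sgcb 1419667_at, -0.0488 to 0.0669 for Sgcb 1419668_at, -0.0537 to 0.0918 for Sgca and -0.73 to 0.0021 for Aqp4. SOD1 against crush ran from -0.0466 to 0.107 for Sgcb 1419667_at, -0.0992 to 0.0462 for Sgca, -0.0268 to 0.199 for Dag1 1423872_a_at, -0.103 to 0.0973 for Dag1 1426779_x_at, -0.18 to 0.19 for Dmd 1448665_at and -0.0306 to 0.278 for Utrn. Gastrocnemius minus triceps ran from -0.0408 to 0.207 for Dag1 1423872_a_at, -0.0937 to 0.181 for Dag1 1426778_at and -0.19 to 0.27 for Dmd 1448665_at, and the NTg muscles from -0.125 to 0.0846 for Dmd 1448665_at. The causes were not tested.

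Same-numbered arrays of the 2 muscles correlated with r from -0.10 to 0.62 in SOD1 and from -0.09 to 0.24 in NTg mice. In each, 4 of 8 arrays correlated best with their own number, and the random block of genotype and number had a correlation of 0.25. These values do not settle whether same-numbered arrays came from 1 mouse. No label ties them, and the numbers were not taken as pairs. The replicate block moved the probe sets called from 902 to 1310 in SOD1 gastrocnemius, 18 to 104 in SOD1 triceps, 311 to 494 after crush and 129 to 193 between the NTg muscles, and changed no call of a member. Over the other alternatives and leaving out arrays, those counts ran from 178 to 2512, 3 to 167, 94 to 1245 and 30 to 361. SOD1 against crush went from 0 to at most 1282, with array weights (604 without crush replicate 4), and the difference between the muscles from 0 to at most 34. The replicate block called Chrna1 and Myog in SOD1 triceps (adjusted p = 0.0212 and 0.0398), and Krt8 in SOD1 gastrocnemius lost its call with a robust prior (adjusted p = 0.0604). With 4 arrays a group, the interval of Dmd 1448665_at in SOD1 gastrocnemius (0.0029 to 1.09) includes a difference as large as the Utrn rise. That of Dmd 1417307_at (0.88-fold to 1.44-fold, against the 1.58-fold of Utrn) does not. Those of Sgca (-0.28 to 0.27) and Sgcb 1419668_at (-0.21 to 0.36) do not include it either.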
